A study of Mus musculus with 6 samples.

Results

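The genes described here encode receptors, ligands and junction proteins of the endothelium, the cell layer that lines blood vessels. They are the VEGF receptor genes Kdr, Flt1 and Flt4, the angiopoietin receptor gene Tek, the apelin receptor gene Aplnr with its ligand gene Apln, the co-receptor gene Eng, the junction genes Cdh5 and Pecam1, and the secreted factor gene Egfl7. They were chosen by symbol, and all 10 were found among the 24975 genes of the count table. RNA was sequenced from mouse mesoderm at embryonic day 7.5 to find transcripts that depend on Hedgehog signalling. Control embryos were Mesp1-Cre/+;R26-tdTomato/+, and their cells were sorted by tdTomato. Embryos of the other group, called Gli3R below, were Mesp1-Cre/+;R26-Gli3R-IRES-Venus/+, and their cells were sorted by Venus. Gli3R is the truncated Gli3 protein, which represses Hedgehog target genes, and all embryos of either group carried Mesp1-Cre, which is driven by a gene of nascent mesoderm. Each group had 3 libraries, 1 from each of 3 litters, made from 1000 sorted cells of pooled littermates. Reporter, sort and genotype changed together in every litter and cannot be told apart.

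Blood vessels form at this stage from mesoderm cells that switch on Kdr, and blood cells arise from much the same population. VEGF ligands act through the kinases Kdr and Flt1, and Flt4 binds the ligands of the lymphatic branch. Flt1 binds VEGF tightly and signals weakly, and a soluble form of it traps the ligand. Aplnr is a G protein-coupled receptor for apelin and for the early embryonic peptide Apela, and it is also expressed in mesoderm outside vessels. Pecam1 is expressed in the pluripotent epiblast as well as in endothelium, and Kdr in lateral mesoderm, so none of these marks endothelium alone at this stage.

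The RefSeq table of start-site windows (build GRCm38.p6) matched 7 of the 10 genes, with 9 windows; Cdh5, Pecam1 and Aplnr had none. The 250 bases before the start were searched on both strands for 5 short motifs. The GLI motif GACCACCCA was in 0 of the 9 windows and in 0.225% of all 32851 windows of that length, and the ETS motif CCGGAAGT was in 0 of 9 and in 2.88%. The GATA motif AGATAA was in 0 of 9 (9.99% of all windows), TATAAA in 1 (Flt1; 12.4%), and the SP1 motif GGGCGG in 5 (32.7%). A match describes letters only, and no match says only that these letters are not in the window. Below are the windows of Apln and Eng, the only windows that overlapped no GENCODE exon and lay outside the gene's RefSeq span. They are at chrX:48034854-48035103 on the minus strand and chr2:32646345-32646594 on the plus strand, and capitals mark the only motif match.
Apln: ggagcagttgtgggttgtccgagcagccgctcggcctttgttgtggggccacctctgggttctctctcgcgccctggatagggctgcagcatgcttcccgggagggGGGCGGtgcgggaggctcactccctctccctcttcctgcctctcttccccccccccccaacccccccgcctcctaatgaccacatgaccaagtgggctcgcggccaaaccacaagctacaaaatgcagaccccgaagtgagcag
Eng: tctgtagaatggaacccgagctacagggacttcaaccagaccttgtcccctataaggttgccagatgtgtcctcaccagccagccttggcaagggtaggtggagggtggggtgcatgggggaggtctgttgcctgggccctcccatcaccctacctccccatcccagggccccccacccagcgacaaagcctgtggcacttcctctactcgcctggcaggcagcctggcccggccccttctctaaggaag

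The libraries held 5481190 to 12635151 counts, so that 1 count stood for 0.0777 to 0.186 CPM, the count rate used below, scaled between libraries by edgeR's TMM. All 11 listed mesoderm markers were expressed enough to be tested, among them Hand1 at 133 ± 16.7 and Pdgfra at 61.1 ± 6.62 CPM in control libraries (SD, n = 3). Control replicate 1, the shallowest library, stood apart on the first principal component (-39.8 against -2.25 to 19.2 for the others). Gli3, part of which the transgene carries, averaged 29.9 ± 4.30 CPM in control and, with Gli3R, 44.5 ± 6.04 CPM. Counts per gene do not separate the transgene from the endogenous gene. In such bulk libraries fewer cells of a type and less RNA per cell cannot be told apart.

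Of the 10 genes, 9 passed the filter on low counts and Cdh5 did not. None of the 9 passed over all 11913 genes tested, where 0.134% of genes passed (edgeR quasi-likelihood test, p adjusted by Benjamini-Hochberg, threshold 0.05). With litter as a block it was again 0 of 9, against 0.227%. At an unadjusted p under 0.05 there were 2 of 9, Kdr on the higher side (3.56% of all genes) and Aplnr on the lower side (3.29%). DESeq2 called 1 of the 9, Aplnr, against 0.789% of all genes, and the edgeR fit without a filter on low counts called 1 of 10, again Aplnr, against 0.577%. The median log2 fold change of the 9 was 0.05, against -0.01 over all genes tested, with 5 values above 0 and 4 below. The set thus had no common direction, and its members are described by role below. The plot of levels by library shows each value.

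**Figure D1:**
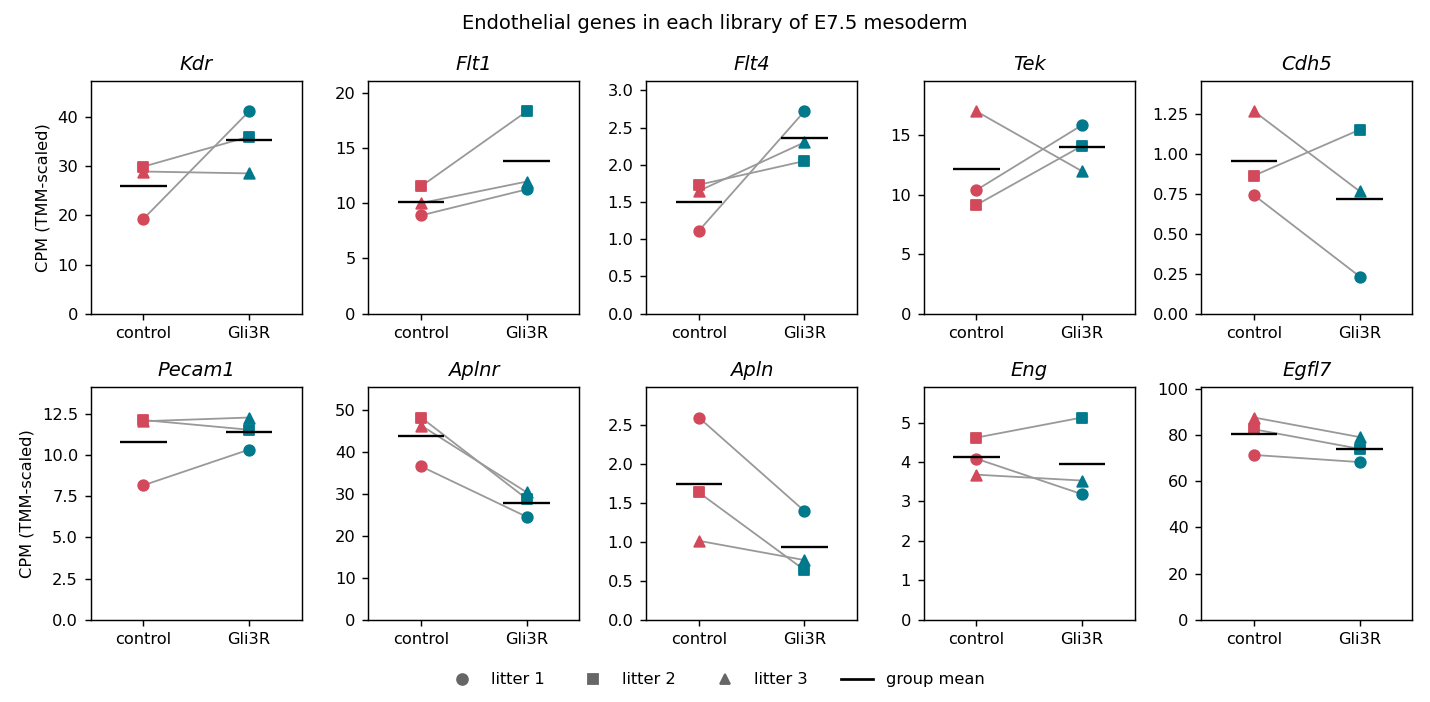
TMM-scaled CPM (vertical axis, from 0, scaled per gene) of the 10 endothelial genes in each control and Gli3R library. Symbols mark litters, grey lines join libraries of the same litter and black bars are group means; for Aplnr the Gli3R libraries (24.5 to 30.4 CPM) lie below the control libraries (36.6 to 48.2 CPM), and most other genes overlap.

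Aplnr (Entrez gene 23796), the apelin receptor gene, had the smallest p of the 9 tested genes. It measured 36.6, 48.2 and 46.3 CPM in the control libraries of litters 1, 2 and 3. With Gli3R the same litters gave 24.5, 28.8 and 30.4 CPM. The highest Gli3R library was thus below the lowest control library, and the gene was lower in each litter. Its group means were 43.7 ± 6.25 and 27.9 ± 3.03 CPM (SD, n = 3 each), a 1.58-fold lower level with Gli3R. The log2 fold change of -0.66 ± 0.14 (SE; 95% interval -0.98 to -0.34) ranked 70 by p among all genes tested. It did not pass, at an adjusted p of 0.192 (edgeR quasi-likelihood test). With litter as a block the adjusted p was 0.0836. Aplnr passed with DESeq2 (adjusted p = 0.0213) and in the edgeR fit without a filter on low counts (0.0349), and its adjusted p ran from 0.0213 to 1.00 over 15 alternatives. When a library or a litter was left out, the log2 fold change ran from -0.76 to -0.57.

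Groups that do not overlap were seen for Aplnr on the lower side, where 6.33% of all tested genes lay, and for Flt4 on the higher side, where 5.62% lay. The 7 other tested genes overlapped between groups.

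Apln (30878), the apelin precursor gene, was sparse, with 14, 17 and 8 counts in control and 18, 5 and 5 in Gli3R libraries. These came to 2.60, 1.64 and 1.01 CPM against 1.398, 0.641 and 0.767 CPM. Gli3R replicate 1 lay above control replicate 3, so that the groups overlapped, while within each litter the Gli3R library was the lower one. The log2 fold change was -0.76 ± 0.48 with a 95% interval of -1.82 to 0.31, which does not set the direction (edgeR quasi-likelihood test, adjusted p = 0.903). Apela (100038489), which encodes the other Aplnr ligand, had more counts. It stood at 35.3, 28.7 and 42.1 CPM in control and at 26.2, 29.7 and 21.9 CPM in Gli3R libraries. Apela was lower in litters 1 and 3 and about level in litter 2, and its log2 fold change of -0.44 ± 0.17 did not pass (adjusted p = 0.667). Of the 5 tested apelin pathway genes, 0 passed in either direction, and the median log2 fold change was -0.01. Only 1 (Apela) was under an unadjusted p of 0.05, on the lower side, beside 3.29% of all genes tested. The G protein gene Gnai3 (-0.06 ± 0.08) and the arrestin gene Arrb1 (0.09 ± 0.25) were near 0.

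The 3 VEGF receptor genes had positive fold changes, none of which passed. Kdr (16542), the main signalling receptor, measured 19.3, 29.9 and 28.9 CPM in the control libraries of litters 1, 2 and 3. With Gli3R it measured 41.2, 36.0 and 28.5 CPM. The difference was widest in litter 1, where the log2 difference between the libraries was 1.08, against 0.27 in litter 2 and -0.02 in litter 3. The log2 fold change was 0.43 ± 0.19 with a 95% interval of 0.00 to 0.86, and it did not pass (edgeR quasi-likelihood test, adjusted p = 0.725; 0.611 with litter as a block). Without litter 1 it was 0.14, and without control replicate 1 alone it was 0.27.

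Marker lists of other cell types also differed within litter 1. Summed over 8 epiblast and ectoderm markers, control replicate 1 held 263 CPM and Gli3R replicate 1 held 154 CPM, while the other libraries held 140 to 173 CPM. Dnmt3b alone gave 135 CPM of the sum in control replicate 1 and 108 CPM in Gli3R replicate 1. Of the 6 tested, 0 passed in the edgeR quasi-likelihood test. At an unadjusted p under 0.05 there were 3 (Cdh1, Epcam and Pou5f1), all lower with Gli3R, beside 3.29% of all genes tested. Their groups did not overlap, as for 6.33% of all tested genes on the lower side. DESeq2 called all 3 (adjusted p = 0.000268, 0.0152 and 0.0122), beside 0.789% of all genes. The edgeR fit without the low-count filter called them too, beside 0.577%. Cdh1, the E-cadherin gene, passed with litter as a block (edgeR quasi-likelihood test, adjusted p = 0.0327), beside 0.227% of all genes. The other tested markers of this list overlapped between groups, at -0.14 ± 0.13 (Dnmt3b), -0.49 ± 0.53 (Nanog) and 0.12 ± 0.21 (Otx2). Summed over 10 primitive erythroid markers, Gli3R replicate 1 held 867 CPM, against 218 to 475 CPM in the controls and 232 to 254 CPM in the other Gli3R pools. The globin gene Hba-a1 gave 2186 counts there and 114 to 341 in each other library. All 10 erythroid markers were tested and 0 passed in edgeR or DESeq2. Only 1 (Hba-a1) was under an unadjusted p of 0.05, on the higher side, beside 3.56% of all genes tested. Nfe2 was at 0.97 ± 0.51 and Alas2 at 0.62 ± 0.40. The part of these markers in the Kdr values was not tested.

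Flt1 (14254), the decoy-type VEGF receptor, stood at 8.91, 11.5 and 10.0 CPM in control and at 11.3, 18.3 and 12.0 CPM in Gli3R libraries. It was higher with Gli3R in each litter, by 0.33, 0.66 and 0.25 on the log2 scale, yet the groups overlapped, since Gli3R replicate 1 lay below control replicate 2. The log2 fold change of 0.43 ± 0.22 (95% interval -0.07 to 0.92) did not pass (adjusted p = 0.811), and without Gli3R replicate 2 it was 0.18. Counts per gene do not separate the soluble from the membrane form. Flt4 (14257), the receptor of the lymphatic branch, had only 6, 18 and 13 counts in control and 35, 16 and 15 in Gli3R libraries. In CPM these were 1.11, 1.73 and 1.65 against 2.72, 2.05 and 2.30. Each Gli3R library lay above each control library, but the 95% interval of the log2 fold change of 0.63 ± 0.33 ran from -0.10 to 1.36 (edgeR quasi-likelihood test, adjusted p = 0.814). Flt1 and Flt4 were the 2 of 9 genes higher in all 3 litters, against 15.0% of all genes tested. Aplnr, Apln and Egfl7 were lower in all 3, against 15.3%.

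**Figure D2:**
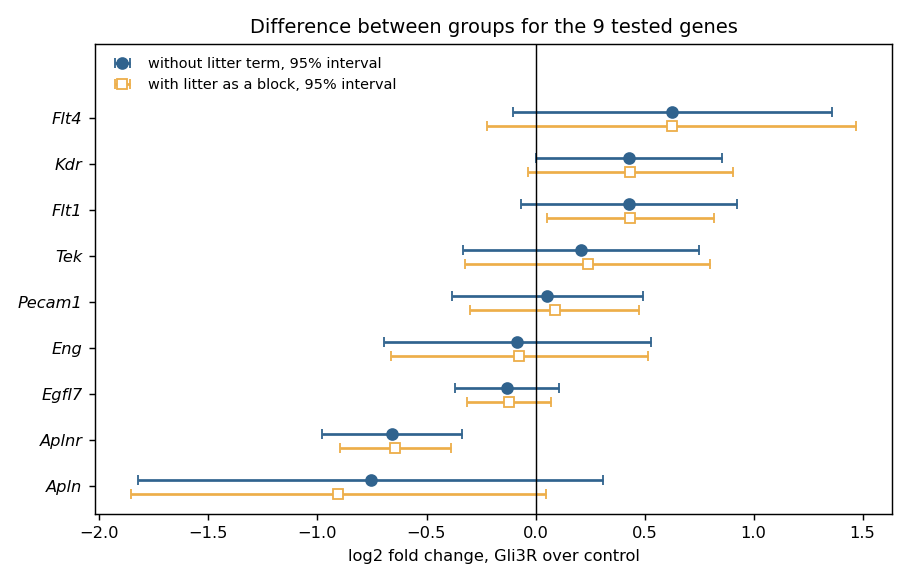
Log2 fold change of Gli3R over control (horizontal axis) for the 9 tested endothelial genes, without a litter term (filled circles) and with litter as a block (open squares), each with its 95% interval. The intervals of Aplnr lie below 0 in either fit, that of Kdr starts at 0.00 without the litter term and that of Flt1 at 0.05 with it, and those of the 6 other genes span 0.

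The VEGF ligand and co-receptor genes held the partner gene with the smallest p outside the transcription factors. Nrp1 encodes a VEGF and semaphorin co-receptor. It stood at 32.8, 57.6 and 70.6 CPM in control and at 79.6, 101 and 110 CPM in Gli3R libraries. Its groups did not overlap, as for 5.62% of all tested genes on the higher side. Its log2 fold change of 0.84 ± 0.23 did not pass (edgeR quasi-likelihood test, adjusted p = 0.374). Its adjusted p was 0.0502 with litter as a block, and it passed with DESeq2 (0.0116) and without the low-count filter (0.0174). The ligand gene Vegfa averaged 25.2 ± 6.70 against 16.8 ± 5.09 CPM with Gli3R (-0.62 ± 0.26), and it was lower in each litter. Vegfb was at 18.5 ± 0.75 and 24.2 ± 4.54 CPM (0.39 ± 0.16), and higher in each litter. Of 6 genes tested, 0 passed, and the list's median was 0.22. The 3 named were under an unadjusted p of 0.05, with 2 higher and 1 lower, beside 3.56% and 3.29% of all genes tested.

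Tek (21687), the angiopoietin receptor gene, stood at 10.4, 9.14 and 16.996 CPM in control and at 15.8, 14.1 and 12.0 CPM in Gli3R libraries. It was higher with Gli3R in litters 1 and 2 (0.60 and 0.61 on the log2 scale) and lower in litter 3 (-0.50). The log2 fold change was 0.21 ± 0.24 (adjusted p = 0.994), 0.02 without control replicate 2 and 0.54 without control replicate 3. Angpt1, which encodes the activating ligand, was at 3.75 ± 1.90 and 3.30 ± 0.77 CPM, and Tie1, the related receptor gene, had 12 counts in all control and 9 in all Gli3R libraries. Of 3 genes tested, 0 passed and 0 were under an unadjusted p of 0.05 (edgeR quasi-likelihood test; DESeq2 also called 0), with a median of -0.26; Angptl4 was at -0.43 ± 0.21 and Svep1 at 0.32 ± 0.40.

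For Pecam1 and Cdh5 the groups overlapped. Pecam1 (18613), an adhesion molecule of endothelial contacts, stood at 8.16, 12.1 and 12.0 CPM in control and at 10.3, 11.5 and 12.3 CPM in Gli3R libraries. Its log2 fold change was 0.05 ± 0.20 with a 95% interval of -0.38 to 0.49, so differences of up to 0.49 on the log2 scale lie within the error. Cdh5 (12562), the VE-cadherin gene of adherens junctions, had 4, 9 and 10 counts in control and 3, 9 and 5 in Gli3R libraries. The ratio of Gli3R to control was 0.643, with 95% limits of 0.323 and 1.26 from counting error alone, so no difference was detectable at this depth. Among 11 partner genes tested, 0 passed (edgeR quasi-likelihood test), DESeq2 called 0, and the median was 0.12. In each direction 1 was under an unadjusted p of 0.05, beside 3.56% of all genes tested on the higher side and 3.29% on the lower. F11r, a tight junction adhesion gene, was at 29.3 ± 2.94 and 20.4 ± 4.31 CPM, and Tjp1, the scaffold gene of tight junctions, at 16.0 ± 1.66 and 20.3 ± 0.91 CPM. For both the groups did not overlap, with F11r lower and Tjp1 higher in each Gli3R library, as for 6.33% and 5.62% of all tested genes. Esam, an endothelial adhesion gene, was at 8.16 ± 3.48 and 12.3 ± 2.24 CPM. F11r is also an epithelial gene.

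Eng (13805), the co-receptor for BMP and TGF-beta ligands in endothelium, stood at 4.08, 4.62 and 3.68 CPM in control and at 3.18, 5.13 and 3.53 CPM in Gli3R libraries. Litter 2 was the highest of its group on either side, and the log2 fold change was -0.08 ± 0.27 (95% interval -0.69 to 0.53). Of 14 tested genes of its pathway, 0 passed and 0 were under an unadjusted p of 0.05 (edgeR quasi-likelihood test; DESeq2 also called 0), with a median of 0.08. The receptor gene Tgfbr1 was at 0.36 ± 0.16, and the inhibitory Smad genes Smad6 and Smad7 were at 0.33 ± 0.25 and 0.30 ± 0.24. Egfl7 (353156), a secreted factor gene of vessel formation, had the most counts of the 10 and stood at 71.4, 82.5 and 87.6 CPM in control and 68.3, 74.1 and 79.2 CPM in Gli3R libraries. Its log2 fold change of -0.13 ± 0.11 had the narrowest interval of the 9 genes, -0.37 to 0.11, so the largest decrease within the interval was -0.37 on the log2 scale.

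**Figure D3:**
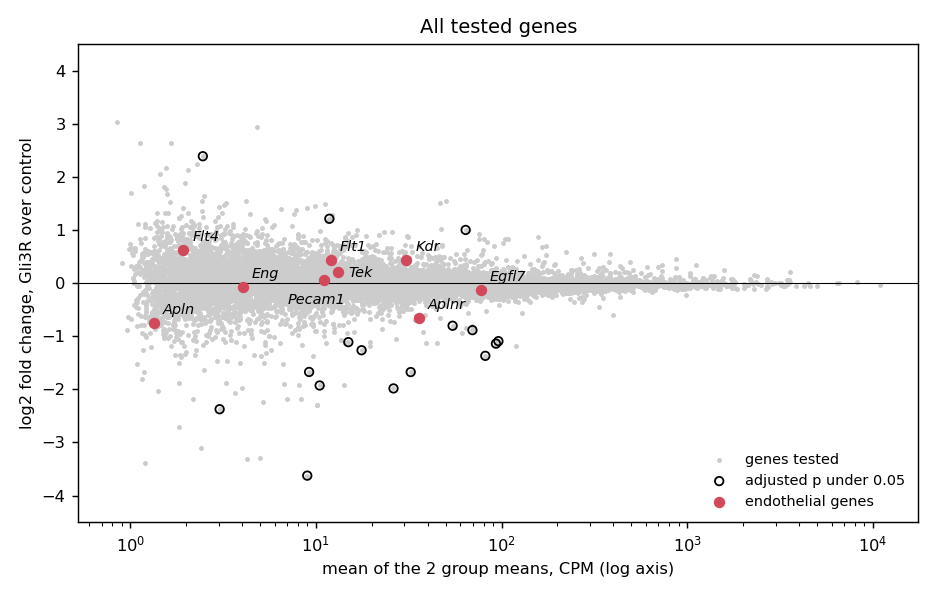
Mean CPM (horizontal axis, log scale) against log2 fold change of Gli3R over control for the 11913 tested genes (grey), with the 16 genes at an adjusted p under 0.05 ringed and the 9 tested endothelial genes in red. Aplnr (-0.66) lies below 0 and Kdr (0.43) above it, and no endothelial gene is ringed.

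Per length, the levels of the 10 genes in control libraries spanned a wide range. Counts were divided by the exon length of each gene in the GENCODE M21 annotation and given as RPKM. Egfl7 was highest at 42.9 ± 4.42 RPKM, then Aplnr at 11.8 ± 1.69 and Kdr at 4.40 ± 0.99 RPKM (SD, n = 3). The libraries of Egfl7 lay above those of Aplnr, and those of Aplnr above those of Kdr. Within each control library Kdr lay above Pecam1 (2.61 ± 0.55) and Tek (2.59 ± 0.90), though the ranges of Kdr and Tek over the libraries overlapped. Pecam1 and Tek overlapped, as did Eng (1.16 ± 0.13) with Flt1 (0.927 ± 0.121) and Flt1 with Apln (0.555 ± 0.253). Cdh5 and Flt4 were lowest and overlapped, at 0.240 ± 0.069 and 0.239 ± 0.054 RPKM. In the Gli3R libraries the gap between Aplnr (7.55 ± 0.82 RPKM) and Kdr (5.95 ± 1.07 RPKM) was smaller, and in replicate 1 Kdr (6.95) lay above Aplnr (6.63).

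The ratio of Kdr to Aplnr counts within a library joins these patterns, though it was chosen with their values known. It was 0.528 to 0.625 in control and 0.939 to 1.68 in Gli3R libraries. The pair sets a gene on the higher side over a gene on the lower side, so the gap only restates their values. By contrast the ratio of Kdr to Flt1 counts overlapped, at 2.17 to 2.89 in control and 1.97 to 3.66 in Gli3R libraries. Kdr to Pecam1 (2.36 to 2.47 in control, 2.33 to 3.98 with Gli3R) overlapped too. So did Kdr to Egfl7 (0.270 to 0.362 and 0.360 to 0.602). Over the 6 libraries, log2 levels of Kdr and Flt4 had the highest correlation of the 36 pairs of tested endothelial genes (Pearson's r = 0.89), and Pecam1 and Apln the lowest (-0.76); 18 pairs were positive and 18 negative. On deviations from the group means other pairs led, with Pecam1 and Aplnr highest (0.96), Apln and Egfl7 lowest (-0.90), and Kdr and Flt4 at 0.82. These are descriptions over 6 libraries, and any pair of genes shares the differences in depth and group between them. The genes most like Kdr and Aplnr over the 6 libraries were picked as the highest values among all 11913 genes tested. For Kdr they were Htatsf1 (r = 0.99), Hspa2 (0.99, at 2.07 ± 0.67 CPM in control) and Ccdc71 (0.98). For Aplnr they were Pard6g (0.99), Cdc23 (0.99) and Elp3 (0.98). None of these 6 passed between groups in the edgeR quasi-likelihood test (adjusted p = 0.631 to 0.934).

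**Figure D4:**
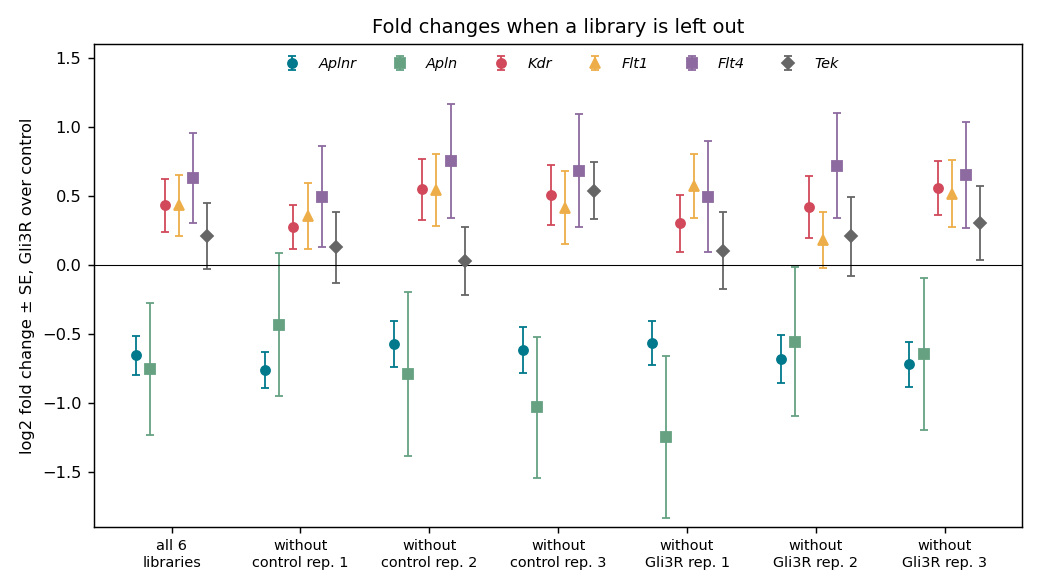
Log2 fold change ± SE of Gli3R over control (vertical axis) for 6 endothelial genes with all 6 libraries and with each library left out. Aplnr stays between -0.76 and -0.57, while Kdr moves between 0.27 and 0.56 and Tek between 0.02 and 0.54.

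Beyond the receptors, other endothelial surface and secreted genes gave 10 tested genes, of which 0 passed, with a median log2 fold change of -0.03. Ramp2, which encodes a receptor partner of endothelium, was at 32.3 ± 9.10 and 23.2 ± 2.52 CPM. It was the 1 gene under an unadjusted p of 0.05, on the lower side, beside 3.29% of all genes tested. The sphingosine receptor gene S1pr1 (0.80 ± 0.45) and the endothelial gene Ecscr (0.41 ± 0.25) had positive values. The last list held transcription factors shared by blood and endothelium. Of 10 tested, 0 passed (edgeR quasi-likelihood test), and 5 higher and 1 lower were under an unadjusted p of 0.05, beside 3.56% and 3.29% of all genes tested, with a median of 0.58. Tal1 (0.96 ± 0.15, edgeR adjusted p = 0.0506) and Hhex (0.88 ± 0.16) were higher and Lmo2 (-0.92 ± 0.18) was lower without overlap between groups. Etv2, Fli1, Sox7 and Runx1 were also higher without overlap, and the other tested factors overlapped. Over all tested genes, 5.62% lay without overlap on the higher side and 6.33% on the lower side. Across the 7 vascular lists, 59 different genes were tested and 0 passed (edgeR quasi-likelihood test), with a median of 0.08. At an unadjusted p under 0.05 there were 8 higher and 5 lower, beside 3.56% and 3.29% of all genes tested. DESeq2 called 5 of the 59, beside 0.789% of all genes, with Nrp1, Tal1, Hhex and Etv2 higher and Lmo2 lower.

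**Figure D5:**
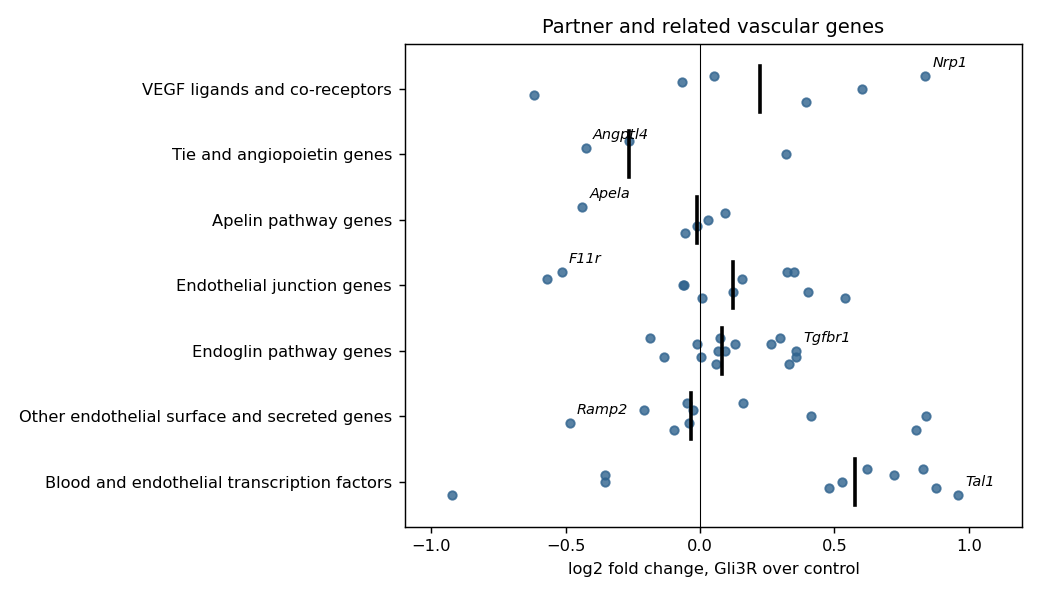
Log2 fold change of Gli3R over control (horizontal axis) for each tested gene of the 7 vascular lists (dots), with the list median as a black bar and the gene with the smallest p named. The transcription factor list has the highest median (0.58), and the medians of the other lists lie between -0.26 and 0.22.

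The marker lists of further cell types were read beside these values. Visceral endoderm markers summed to 40.6 to 89.7 CPM in control and 64.0 to 112 CPM in Gli3R libraries, and 5 of 11 were expressed enough to be tested, with 0 that passed and 0 under an unadjusted p of 0.05. Sox17 was at -0.35 ± 0.30, Apoa1 at 0.91 ± 0.92 and Dab2, which mesoderm also expresses, at 0.24 ± 0.26. Dab2 alone gave most of each sum, with 32.7 to 79.9 CPM in control and 55.8 to 75.4 CPM in Gli3R libraries. The node and endoderm gene Foxa2, named after its values were seen, was too sparse to be tested. It had 19 counts in control (3, 11 and 5 by replicate) and 0 in Gli3R libraries. Among the other untested markers of the list, total counts were higher with Gli3R for some and lower for others. Trophoblast markers, which include the mesoderm gene Hand1, summed to 150 to 168 CPM in control and 155 to 220 CPM with Gli3R. Hand1 alone gave most of each sum, with 118 to 151 CPM in control and 142 to 207 CPM with Gli3R. The defining genes Elf5 and Tpbpa had no count in any library. Of the 5 tested, 0 passed. At an unadjusted p under 0.05 there were 1 higher and 3 lower, beside 3.56% and 3.29% of all genes tested. Ascl2 (-1.11 ± 0.37) and Cdx2 (-0.56 ± 0.23) were the lower ones with the smallest p. Among the nascent mesoderm markers, Mesp2 was at -1.47 ± 0.45 and Tbx6 at -1.38 ± 0.59, while Hand1 was at 0.43 ± 0.14 and higher in each litter. Here 0 of 11 passed in edgeR and 0 in DESeq2. Under an unadjusted p of 0.05 were 1 higher (Hand1) and 2 lower (Mesp2 and Tbx6), beside 3.56% and 3.29% of all genes tested. In the visceral endoderm and trophoblast lists DESeq2 also called 0. The part of these cell types in the endothelial values was not tested.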

How the data were processed

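The authors deposited a table of raw counts with a column for each library. The submitters' processing notes list TopHat2 2.0.14, Subread 1.4.6, featureCounts, FastQC and edgeR with build mm9, and no roles. Gene annotation and strandedness: not given in the sources used here. Libraries came from the SMARTer Ultra Low and Nextera XT kits, per the labels. The labels name no molecular identifiers, so amplified copies may count as reads. The limits given on counts cover counting error alone and leave out such copies and the spread between pools. Sorting reporters and litters are as per the file headers.

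Counts were analysed in R 4.3.3 with edgeR 4.0.16: filterByExpr (minimum count 10), TMM scaling and the quasi-likelihood test without a litter term, two-sided, with Benjamini-Hochberg adjustment over 11913 genes and a threshold of 0.05. Log2 differences within litters and correlations use log2 CPM with a prior count of 2. Alternatives were litter as a block, DESeq2 1.42.0, other scalings and filters, and leaving out each library or litter. The labels and file header pair libraries by litter; the correlation of deviations from the group mean was 0.168 in litter 1, 0.187 in litter 2 and 0.0755 in litter 3, and lay between -0.269 and 0.162 for libraries of unlike litters. Named are all 10 genes and up to 3 genes with the smallest p of each of 12 lists. The 3 genes most correlated with Kdr and with Aplnr are named too. Foxa2, Pdgfra, Tie1, Etv2, Gli3, Dnmt3b, Nanog, Otx2, Fli1, Sox7, Runx1 and the sparse genes of the closing section were added after their values were seen. Members and lists were chosen with earlier results of these data known. Exon lengths are from GENCODE M21, another build than the authors', as are the start-site windows; only windows that overlap no GENCODE exon and lie outside the gene's RefSeq span were printed. Each library is a pool of littermates, and the tests see only how such pools vary.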

Additional observations from a re-analysis of the deposited data

How the results depend on the processing

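Without the low-count filter 49 genes were higher and 59 lower over all genes, and with DESeq2 43 and 51, against 3 and 13; the edgeR prior degrees of freedom were 21.4 without the filter and 5.60 with it. Library size alone gave 5 higher, the filter at 5 CPM in 3 libraries 1 higher, and the replicate block 9 higher and 18 lower. Leaving out a library or litter gave 0 to 5 higher and 0 to 22 lower; there were none at all without Gli3R replicate 3 (659 under an unadjusted p of 0.05 in edgeR) or without litter 3 (747). Of the endothelial genes 0 passed under every alternative but DESeq2 and no filter, where 1 (Aplnr) was lower. Of the other vascular genes, 4 were higher and 1 lower with DESeq2 and likewise without the filter, and 1 (Tal1) was higher with library size alone. The replicate block changed no call of an endothelial or vascular list gene. The sign changed when libraries or litters were left out for Pecam1 (-0.092 to 0.16), Eng (-0.31 to 0.072), Svep1 (-0.10 to 0.64), Angpt1 (-0.57 to 0.10), Arrb1 (-0.063 to 0.30), Hba-a1 (-0.0010 to 2.18), Alas2 (-0.15 to 0.97), Apoa1 (-0.35 to 2.74) and Dab2 (-0.027 to 0.54). The cause was not tested. Apln was below the filter without litter 1, and Apln, Eng and Flt4 were below that of 5 CPM. Depth limits Cdh5, Apln and Flt4 most, with 17 to 66 counts per group.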

Other observations

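Several endothelial genes were too sparse to be tested, and 20 of those in the vascular lists had at least 1 count. Their ratios carry 95% intervals that cover counting error only, in libraries where amplified copies may count as reads, and the genes named here were picked after their values were seen. Robo4, which encodes a receptor of vessel stability, had 0, 1 and 0 counts in control replicates 1, 2 and 3 and 9, 2 and 7 in the Gli3R replicates. Its ratio of Gli3R to control was 15.7 (2.47 to 653). Thbd, the thrombomodulin gene, had 1, 2 and 2 counts in control and 12, 2 and 14 in Gli3R libraries, a ratio of 4.87 (1.86 to 16.2), with 2 counts in each library of litter 2.

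Lyve1, a marker of lymphatic and early yolk sac endothelium, had 1, 6 and 3 counts in control and none in the Gli3R libraries, and the interval of its ratio ran from 0 to 0.388. Cd93, a lectin-like receptor gene of endothelium, had 0, 20 and 10 counts in control and 9, 6 and 2 in Gli3R libraries, a ratio of 0.493 (0.255 to 0.923), and its groups overlapped. In the edgeR quasi-likelihood fit without a filter on low counts none of the 4 passed (adjusted p = 0.318 for Robo4, 0.432 for Thbd, 0.345 for Lyve1 and 0.899 for Cd93). Among the 20, 16 had intervals that include 1.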
